A study of Homo sapiens with 12 samples.

Results

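The transcripts of 10 genes that carry iron into cells, store it, release it and pass it out again were followed in the human leukemia line K562, in its imatinib-resistant derivative K562/IM, and in both lines after lycorine. The genes were chosen by name for their place in iron handling, with earlier results of these data known, and they are 10 of the 19447 gene symbols counted in the study. All 10 passed the low-count filter in every comparison. K562 is a chronic myeloid leukemia line with erythroid features that carries BCR-ABL. The study made K562/IM by raising imatinib, an inhibitor of that kinase, step by step, and then kept the cells in the drug, so that it is a selected culture of 1 line. Lycorine (L) is an alkaloid of Amaryllidaceae plants. Polyadenylated RNA was sequenced in 12 libraries, 3 each of K562 (control), K562+L (K562 with lycorine), K562/IM (the resistant line without lycorine) and a group labelled K562/IM+L (the resistant line with lycorine). The labels give neither dose nor hours of exposure, and they do not say whether the 3 libraries of a group came from separate cultures. If they did not, the p-values below measure technical spread. Total counts ran from 75093844 to 107344598 per library.

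The label of the last group needs care. ABCB1, the drug efflux pump of many resistant lines, stood at 21.9 to 25.9 CPM (counts scaled to library size) in K562/IM. Those under the label K562/IM+L held 0.488 to 1.06 CPM, less than the lowest K562 library (1.68). Since these cells were treated, a low ABCB1 level does not by itself show that the label is wrong. These are called the labelled libraries from here on, and each direction drawn from them rests on that label. Their summed level of 11 erythroid markers was 19524 to 27788 CPM, against 1547 to 1709 in K562/IM, 2697 to 4037 in K562 and 1997 to 2320 in K562+L. HBZ (mean 11126 CPM) and HBG1 (mean 8516 CPM) made up most of that sum in the labelled libraries. All 11 markers were higher than in K562/IM, at an adjusted p under 0.05, as were 33.2% of all genes tested. Of the 11, 9 were also higher by a log2 fold change over 1. The rise was uneven: GATA1 had a mean of 250 CPM in the labelled libraries, 196 in K562/IM and 230 in K562. The part of that erythroid difference in the iron genes was not tested, and in bulk RNA fewer cells of a type and less RNA per cell cannot be told apart. Megakaryocyte markers summed to 182 to 199 CPM in K562/IM and to at most 21.9 elsewhere, with GP9 and PF4 at 0 in K562/IM. ITGA2B made up nearly all of that sum in K562/IM (179 to 195 CPM). Lymphocyte markers were low: the B list reached at most 2.60 CPM with MS4A1 at 0 in K562/IM, and the T list 23.1 CPM in K562/IM and 2.82 elsewhere. CD3D made up nearly all of the T list in K562/IM (21.3 to 23.0 CPM). The monocyte and granulocyte list ran from 76.0 to 174 CPM over all libraries. LYZ made up nearly all of it (74.9 to 171 CPM), and ITGAM reached at most 3.37 CPM, in K562/IM.

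A cell takes up transferrin-bound iron with the transferrin receptor, encoded by TFRC. In the endosome STEAP3 reduces the iron, and the transporter made by SLC11A2 lets it into the cytosol. SLC25A37 (mitoferrin) brings it into mitochondria for haem and iron-sulphur clusters, which is why it is prominent in red cell precursors. FTH1 and FTL form the ferritin shell that stores iron, NCOA4 takes ferritin to the lysosome for release, and SLC40A1 (ferroportin) is the exporter. IREB2 and ACO1 encode the iron regulatory proteins. When iron is scarce they bind a hairpin, the iron-responsive element, which protects the TFRC messenger from decay when it lies in the 3′ UTR and blocks translation of ferritin and ferroportin when it lies in the 5′ UTR.

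The hairpins themselves are shown because they link 4 of the members to the pair of regulators. Each line gives 30 bases of the GENCODE release 29 transcript (GRCh38), 5′ to 3′ and on the strand of the gene, with T for U. The capitals mark the bulged C and the 6-base loop.
TFRC, chr3:196050978-196051007, minus strand, exon 19, 3′ UTR: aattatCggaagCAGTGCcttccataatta
TFRC, chr3:196050574-196050603, minus strand, exon 19, 3′ UTR: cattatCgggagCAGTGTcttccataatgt
TFRC, chr3:196050509-196050538, minus strand, exon 19, 3′ UTR: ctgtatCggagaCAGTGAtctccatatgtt
TFRC, chr3:196050462-196050491, minus strand, exon 19, 3′ UTR: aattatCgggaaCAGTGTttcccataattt
FTH1, chr11:61967573-61967602, minus strand, exon 1, 5′ UTR: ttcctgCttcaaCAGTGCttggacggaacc
FTL, chr19:48965335-48965364, plus strand, exon 1, 5′ UTR: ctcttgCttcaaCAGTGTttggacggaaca
SLC40A1, chr2:189580660-189580689, minus strand, exon 1, 5′ UTR: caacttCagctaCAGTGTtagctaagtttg
The motif searched was a C, 5 bases of any kind, the loop letters CAGTG with a last loop base other than G, and 5 bases able to pair with those before the loop. Only the sense strand was searched. It was found in 168 of 18901 principal transcripts (0.889%), and 2 of them held 3 or more. Of the 9 members searched, 4 held a match. SLC11A2, a member also listed below among the messengers known to carry the element, held 0. No match was found in EPAS1, CDC14A or CDC42BPA either, which are listed as carriers too. The search therefore misses known elements, and the lack of a match does not show that a messenger has none.

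The 10 genes together took 0.452% to 0.518% of all counts in K562, 0.399% to 0.433% in K562+L, 0.405% to 0.434% in K562/IM and 0.805% to 0.883% in the labelled libraries. Per kilobase of transcript, the ferritins were far above the rest. In K562, FTL stood at 1910 ± 354 CPM per kb (SD, n = 3) and FTH1 at 1639 ± 218, while SLC25A37 ranked last of the 10 with 11.8 ± 0.645. In the labelled libraries FTH1 ranked first with 2874 ± 531 CPM per kb, ahead of FTL with 1853 ± 298, and SLC25A37 had moved up to rank 4 with 276 ± 7.92. Copies bear on the ferritin values, since the annotation names 25 pseudogenes after FTH1, 16 after FTL and 3 after NCOA4, and how reads shared with such copies were counted is not given in the sources used here.

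**Figure D1:**
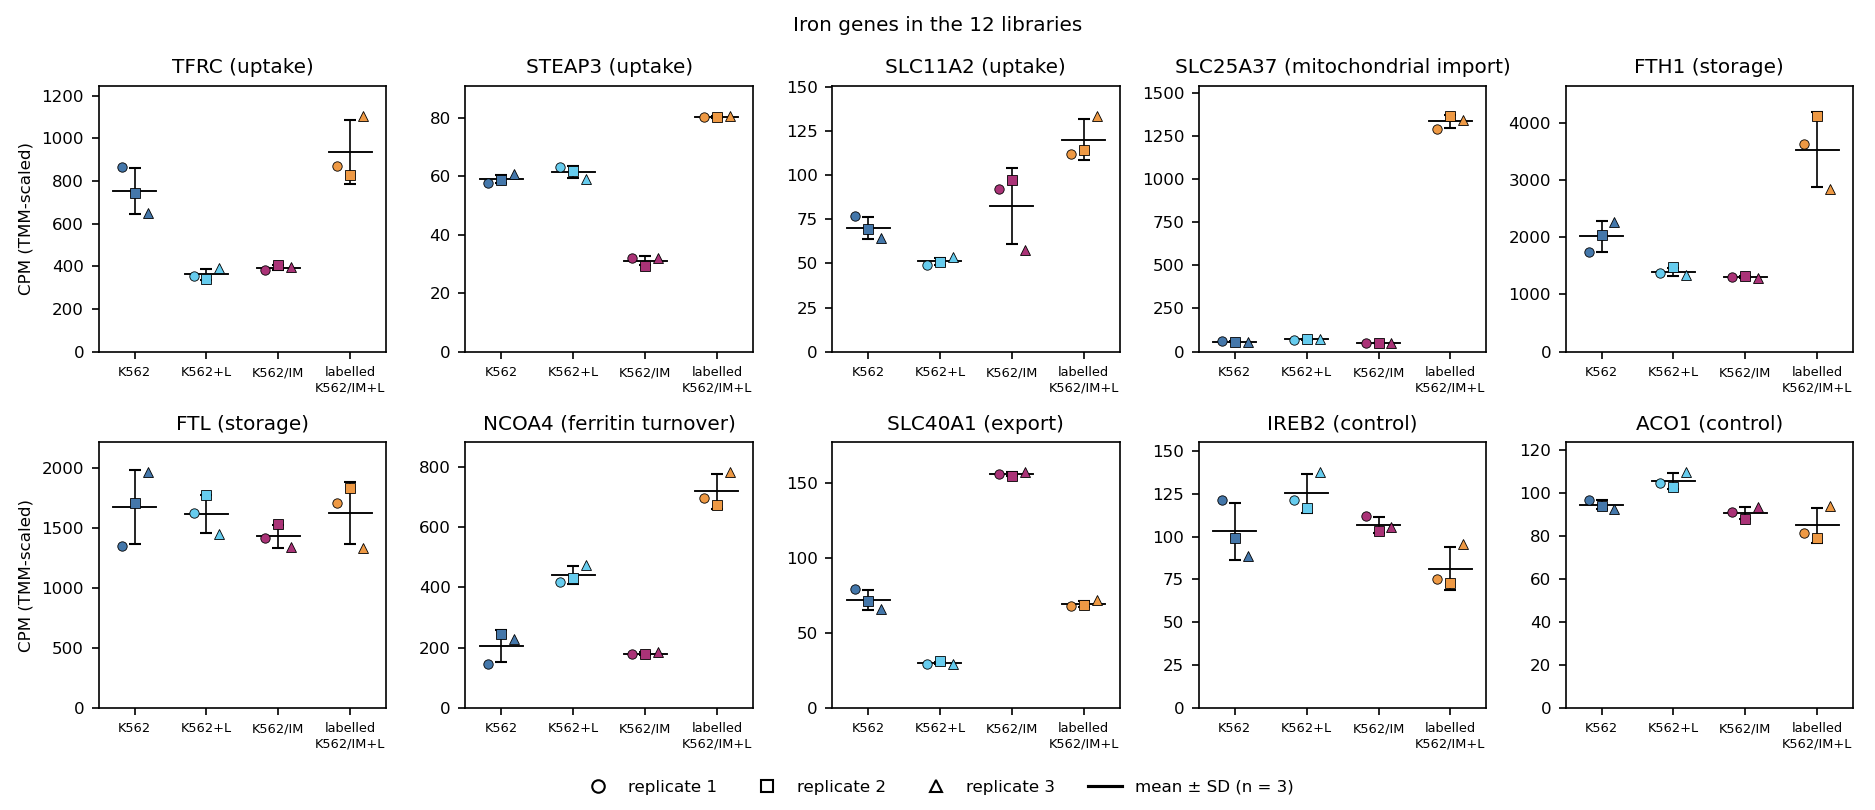
CPM of each gene in the 12 libraries (y axis, linear and from 0, a separate scale for each gene), by group on the x axis, where points are libraries and bars are the mean ± SD of 3. TFRC, FTH1, STEAP3, SLC11A2, NCOA4 and SLC25A37 have their highest mean in the labelled libraries, SLC40A1 in K562/IM, and FTL overlaps between groups.

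With lycorine, K562 cells held less transcript of the importer gene TFRC and the exporter gene SLC40A1 and more of the ferritin-release gene NCOA4. At an adjusted p under 0.05 (edgeR's quasi-likelihood test), 4 of the 10 genes were lower and 2 higher in K562+L than in K562, against 37.3% of all 12927 genes tested that passed in either direction, 19.0% lower and 18.2% higher. TFRC, SLC40A1 and NCOA4 also passed a log2 fold change of 1, as did 6.39% of genes. Libraries of the groups did not overlap for 7 of the 10, against 51.5% of all genes. K562/IM differed from K562 in 4 of the 10, with TFRC, STEAP3 and FTH1 lower and SLC40A1 higher, against a background of 57.1% (27.1% lower, 30.1% higher). Of these only SLC40A1 passed the fold threshold as well (background 19.1%), and 5 of the 10 did not overlap (background 66.6%). The labelled libraries differed from K562/IM in 8 of 10, with 6 higher and 2 lower, where the background was 66.8% (33.2% higher, 33.6% lower). The fold threshold was passed by 6 (background 28.5%), and 8 did not overlap (background 73.4%). Against K562 they were higher in 5 of 10 and lower in 0, with a background of 56.0% (28.2% higher, 27.8% lower). IREB2 was the 1 gene lower there at an unadjusted p under 0.05 by edgeR's quasi-likelihood test, and DESeq2 called 0 lower. Fitted over all 12 libraries or without K562 replicate 3, 1 was lower (IREB2), and 2 were lower without labelled replicate 3 (IREB2 and ACO1) or with the length and GC trend described below removed (IREB2 and FTL). SLC25A37 and NCOA4 passed the fold threshold (background 23.8%), and 5 did not overlap (background 63.6%). The K562 libraries serve in several of these comparisons and the K562/IM libraries in 2, so the comparisons are not independent of each other.

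**Figure D2:**
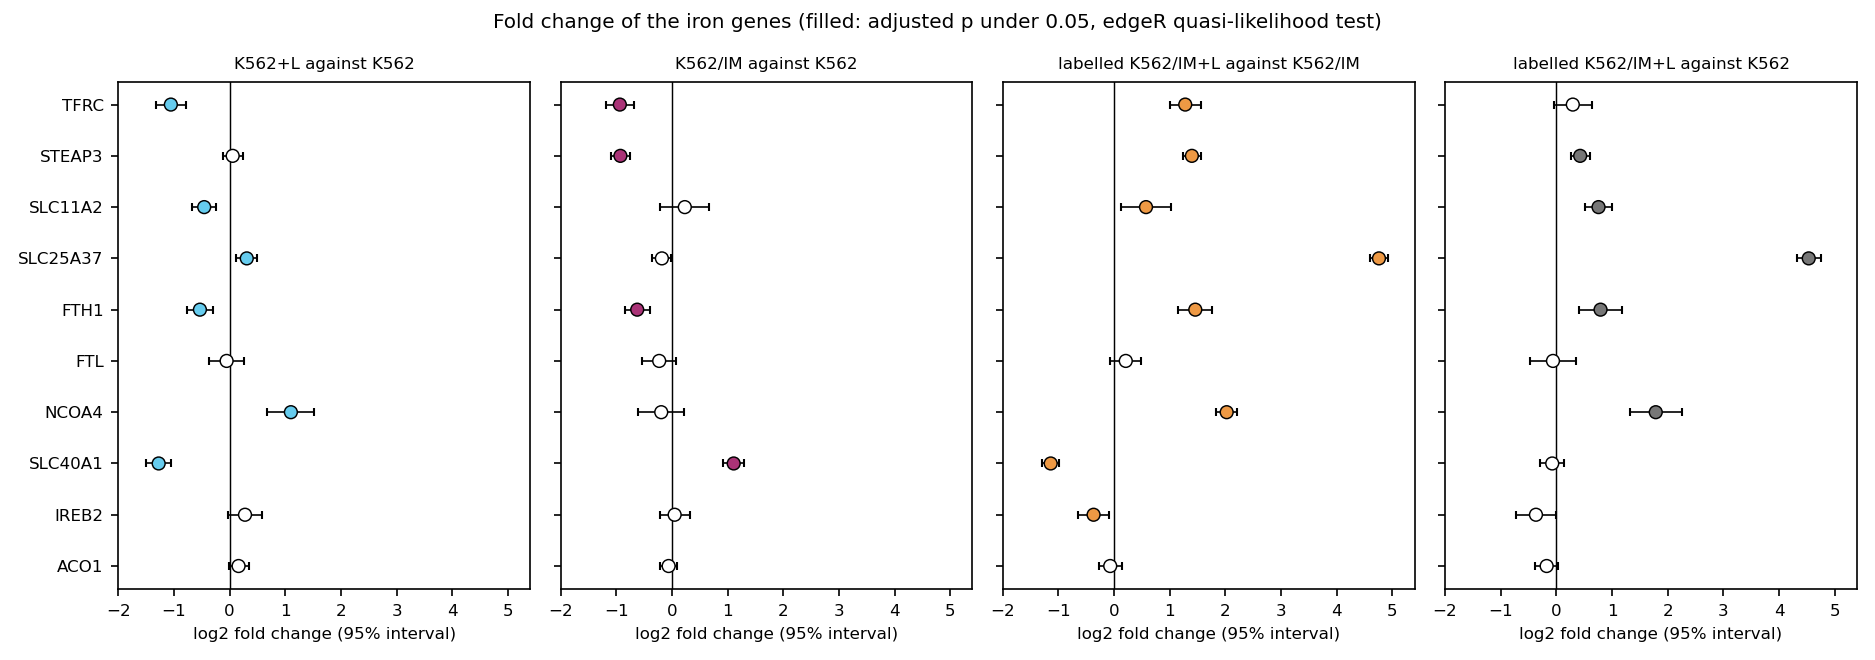
Log2 fold change of each gene with its 95% interval (x axis) in 4 comparisons, with filled points for an adjusted p under 0.05. SLC25A37 lies at 4.76 and 4.53 in the comparisons of the labelled libraries with K562/IM and K562, while FTL is unfilled in each panel.

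TFRC, on chromosome 3 (196027183 to 196082189, minus strand), was measured at 865, 743 and 647 CPM in the 3 K562 libraries. K562+L held 356, 340 and 390, and K562/IM held 380, 403 and 397. The labelled libraries held 872, 829 and 1106. K562+L and K562/IM thus lay under every library of the other groups and overlapped each other. TFRC fell with lycorine in K562, where the log2 fold change was -1.06 (standard error 0.12, edgeR adjusted p = 0.000736). It was also lower in K562/IM than in K562 (-0.93, standard error 0.11, edgeR adjusted p = 0.000232). In the labelled libraries it was higher than in K562/IM by 1.28 (standard error 0.12, edgeR adjusted p = 6.11e-05). Against K562 the difference was 0.30 with a 95% interval of -0.05 to 0.64, and K562 replicate 1 overlapped the labelled range. That last difference passed in 3 of 15 alternatives, among them the one with the length and GC trend removed that is described below (0.37, edgeR adjusted p = 0.000576).

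STEAP3, on chromosome 2 (119223831 to 119265652), varied little between replicates. Its 3 libraries held 57.8, 58.7 and 60.7 CPM in K562 and 63.0, 62.0 and 59.2 in K562+L. K562/IM held 32.2, 29.3 and 31.9, and the labelled libraries 80.2, 80.5 and 80.8. K562 and K562+L overlapped, K562/IM lay under them and the labelled libraries above. The log2 fold change was -0.92 in K562/IM against K562 (standard error 0.07, edgeR adjusted p = 3.96e-05) and 1.40 in the labelled libraries against K562/IM (standard error 0.07, edgeR adjusted p = 3.12e-06). With lycorine in K562 it was 0.06, with a 95% interval of -0.13 to 0.24. Against K562, the labelled libraries were higher by 0.43 (standard error 0.07, edgeR adjusted p = 0.00202), a call that was lost with the length and GC trend removed (0.05, edgeR adjusted p = 0.309).

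SLC11A2, on chromosome 12 (50979401 to 51028566, minus strand), was measured at 77.0, 69.5 and 64.2 CPM in K562 and at 49.3, 50.8 and 53.6 in K562+L. The lycorine-treated cells lay wholly under the control cells, and the log2 fold change was -0.46 (standard error 0.10, edgeR adjusted p = 0.00859). K562/IM held 92.5, 97.4 and 57.7 CPM, and the labelled libraries 112, 115 and 134. In K562/IM replicate 3 stood far under the others, and the difference from K562 was 0.23 (95% interval -0.21 to 0.67). Without that library it was 0.44 (edgeR adjusted p = 0.0155). The labelled libraries were higher than K562/IM by 0.57 (standard error 0.19, edgeR adjusted p = 0.0304), but not past the threshold when labelled replicate 3 was left out (0.49, edgeR adjusted p = 0.0684). Without the low K562/IM replicate 3 the difference was 0.37 (edgeR adjusted p = 0.0286). Against K562 they were higher by 0.76 (standard error 0.11, edgeR adjusted p = 0.000856).

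SLC25A37, the mitochondrial importer, stood apart. It was measured at 59.6, 57.4 and 53.4 CPM in K562, at 69.2, 71.9 and 70.1 in K562+L and at 49.5, 50.0 and 51.1 in K562/IM. The labelled libraries held 1292, 1367 and 1341 CPM. No library of any group overlapped another group, and the labelled mean was 26.6 times that of K562/IM. The log2 fold change was 4.76 against K562/IM (standard error 0.07, edgeR adjusted p = 7.22e-08), larger in size than that of 96.4% of the genes tested, and 4.53 against K562 (standard error 0.09, edgeR adjusted p = 1.80e-06). With lycorine in K562 it rose by 0.31 (standard error 0.08, edgeR adjusted p = 0.0218). That smaller call was lost in 5 of the 6 fits that left out 1 library (edgeR adjusted p 0.0564 to 0.0828), K562 replicate 1 being the exception. In K562/IM it differed from K562 by -0.18 (edgeR adjusted p = 0.0670), and this passed in 6 of 15 alternatives. These were the fits without K562 replicate 1 (edgeR adjusted p = 0.0424) or replicate 3 (edgeR adjusted p = 0.0207), DESeq2 (adjusted p = 0.0170), RLE scaling (edgeR adjusted p = 0.0393), all 12 libraries in 1 fit (edgeR adjusted p = 0.0219) and removal of the length and GC trend. The last gave a larger value of -0.61 (edgeR adjusted p = 1.36e-05). ALAS2, the erythroid enzyme that begins haem synthesis and 1 of the erythroid markers, stood at 43.6 ± 5.31 CPM in K562, 48.9 ± 1.97 in K562+L, 17.5 ± 0.906 in K562/IM and 1095 ± 116 in the labelled libraries (SD, n = 3 each).

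FTH1, the ferritin heavy chain that oxidises iron on entry, lies on chromosome 11 (61959718 to 61967660, minus strand). K562 held 1736, 2035 and 2271 CPM and K562+L 1371, 1475 and 1333. K562/IM held 1308, 1329 and 1290, and the labelled libraries 3629, 4131 and 2838. Only K562+L and K562/IM came near each other, and these did not overlap either. FTH1 fell with lycorine in K562 by 0.53 on the log2 scale (95% interval -0.77 to -0.30, edgeR adjusted p = 0.00650). It was lower in K562/IM than in K562, at -0.62 (standard error 0.10, edgeR adjusted p = 0.00105). The labelled libraries were higher than K562/IM by 1.46 (standard error 0.13, edgeR adjusted p = 5.01e-05) and higher than K562 by 0.79 (standard error 0.17, edgeR adjusted p = 0.00542).

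FTL, the ferritin light chain on chromosome 19 (48965301 to 48966878), passed in none of these 4 comparisons and had none at an unadjusted p under 0.05. It was measured at 1351, 1709 and 1971 CPM in K562, 1626, 1773 and 1451 in K562+L, 1419, 1534 and 1346 in K562/IM and 1712, 1835 and 1334 in the labelled libraries. All 4 groups overlapped. The 95% interval of its log2 fold change was -0.37 to 0.27 for lycorine in K562, -0.53 to 0.08 for K562/IM against K562 and -0.07 to 0.49 for the labelled libraries against K562/IM. These intervals leave room for moderate changes. At 878 bases FTL has the shortest transcript of the 10, and with the length and GC trend removed it passed as higher in K562+L (0.39, edgeR adjusted p = 0.00178) and, for the labelled libraries, as lower against K562/IM (-0.36, edgeR adjusted p = 0.00104) and against K562 (-0.50, edgeR adjusted p = 0.000253). The opposite call came without labelled replicate 3, where FTL passed as higher against K562/IM (0.34, edgeR adjusted p = 0.00228). Without K562 replicate 1 it passed as lower in K562/IM than in K562 (-0.39, edgeR adjusted p = 0.00494).

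In K562 and in the labelled libraries the ratio of FTH1 to FTL within a library varied less between replicates than either gene, whereas in K562+L and K562/IM FTH1 alone varied less. It was 1.28, 1.19 and 1.15 in K562 and 0.843, 0.832 and 0.918 in K562+L. K562/IM had a mean of 0.916 ± 0.0460 and the labelled libraries of 2.17 ± 0.0736 (SD, n = 3). The K562 libraries lay above all of K562+L and K562/IM, which overlapped, and the labelled libraries lay above all others. An exact test of 3 libraries against 3 cannot give a two-sided p under 0.1, so no p is given for ratios. TFRC to SLC40A1, importer to exporter, was 10.4 ± 0.564 in K562, 12.1 ± 1.12 in K562+L and 13.4 ± 1.74 in the labelled libraries (SD, n = 3). In K562/IM it was 2.52 ± 0.0819, under every library of the other groups. IREB2 to ACO1 stayed between 0.921 and 1.26 over all 12 libraries.

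**Figure D3:**
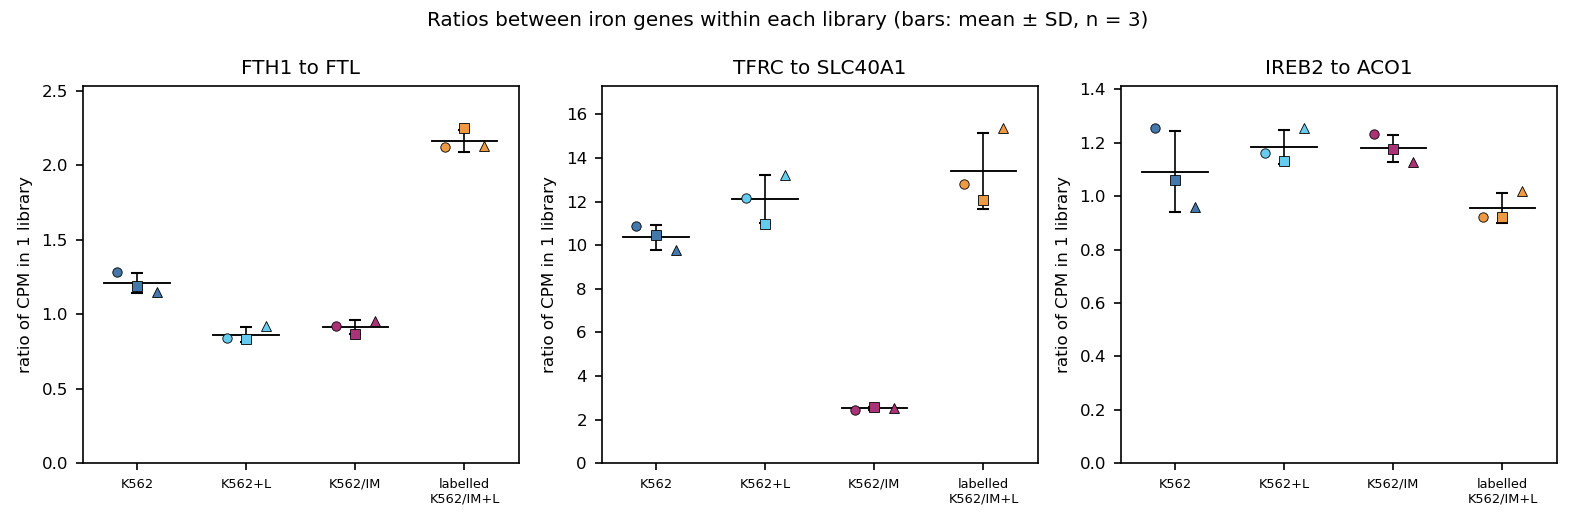
Ratio of the CPM of a pair of genes within each library (y axis, linear and from 0), by group on the x axis, with points for libraries and bars for the mean ± SD of 3. FTH1 to FTL is highest in the labelled libraries (2.17 ± 0.0736) and TFRC to SLC40A1 lowest in K562/IM (2.52 ± 0.0819).

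NCOA4, on chromosome 10 (46005088 to 46030714, minus strand), was measured at 144, 246 and 227 CPM in K562 and at 419, 431 and 475 in K562+L. It rose with lycorine in K562 by 1.10 on the log2 scale (standard error 0.18, edgeR adjusted p = 0.00375), and every treated library lay above every control library. K562/IM held 177, 177 and 186 CPM, and the labelled libraries 698, 674 and 784. The labelled libraries exceeded all others, by 2.02 against K562/IM (standard error 0.08, edgeR adjusted p = 1.35e-06) and by 1.79 against K562 (standard error 0.20, edgeR adjusted p = 0.000279). K562 replicate 1 stood low, and it decided the comparison of the lines without lycorine. With it the difference of K562/IM from K562 was -0.19 (edgeR adjusted p = 0.392), and without it -0.42 (edgeR adjusted p = 0.000579).

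SLC40A1, the exporter on chromosome 2 (189560579 to 189583758, minus strand), was lower after lycorine in both lines as labelled. K562 held 79.5, 71.1 and 66.3 CPM and K562+L 29.3, 31.0 and 29.5. K562/IM held 156, 155 and 158, and the labelled libraries 68.2, 68.7 and 72.0. K562/IM was above all other groups, K562+L under them, and K562 overlapped the labelled libraries. The log2 fold change was -1.27 for lycorine in K562 (standard error 0.10, edgeR adjusted p = 0.000173) and -1.14 for the labelled libraries against K562/IM (standard error 0.06, edgeR adjusted p = 5.46e-06). K562/IM exceeded K562 by 1.11 (standard error 0.08, edgeR adjusted p = 2.97e-05). Between the labelled libraries and K562 the difference was -0.07, with a 95% interval of -0.29 to 0.14.

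The transcripts of the iron regulatory proteins varied over a narrow range. IREB2, on chromosome 15 (78437431 to 78501456), was measured at 121, 99.4 and 88.8 CPM in K562, 121, 116 and 138 in K562+L, 112, 103 and 105 in K562/IM and 75.1, 72.7 and 95.8 in the labelled libraries. The labelled libraries were lower against K562/IM, at -0.37 (standard error 0.12, edgeR adjusted p = 0.0245). The call was lost without K562/IM replicate 1 or 3 or labelled replicate 1 or 2 (edgeR adjusted p 0.0618 to 0.0845), and with the length and GC trend removed the value was 0.07 (edgeR adjusted p = 0.257). For lycorine in K562 its interval was -0.02 to 0.58. That difference passed without K562 replicate 1 (0.40, edgeR adjusted p = 0.0181). With the length and GC trend removed IREB2 passed as lower in K562/IM than in K562 (-0.33, edgeR adjusted p = 0.000936), and against K562 the labelled libraries were lower (-0.24, edgeR adjusted p = 0.00232). ACO1, on chromosome 9 (32384603 to 32454769), lay between 79.0 and 110 CPM in all 12 libraries. Its log2 fold change was 0.16 for lycorine in K562 (95% interval -0.02 to 0.34), -0.06 for K562/IM against K562 (-0.21 to 0.09), -0.07 for the labelled libraries against K562/IM (-0.27 to 0.13) and -0.17 against K562 (-0.38 to 0.03). With the length and GC trend removed ACO1 passed as lower in K562/IM than in K562 (-0.60, edgeR adjusted p = 0.000183) and as higher in the labelled group against K562/IM (0.40, edgeR adjusted p = 0.000304). Without labelled replicate 3 it passed in the opposite direction, as lower against K562/IM (-0.15, edgeR adjusted p = 0.0300), and as lower against K562 (-0.25, edgeR adjusted p = 0.0394).

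The effect of lycorine was compared between the lines, as labelled, with an interaction term over all 12 libraries. It passed for 8 of the 10 genes, 6 higher and 2 lower in K562/IM, against 61.7% of 13995 genes tested (29.9% higher, 31.7% lower). The difference was 4.43 for SLC25A37 (standard error 0.09, edgeR adjusted p = 2.01e-11), 2.31 for TFRC (standard error 0.17, edgeR adjusted p = 5.10e-07) and 1.97 for FTH1 (standard error 0.18, edgeR adjusted p = 2.44e-06). TFRC and FTH1 fell with lycorine in K562, whereas the labelled libraries exceeded K562/IM in both. NCOA4 was higher in both, and more so in the labelled libraries, by 0.90 (standard error 0.22, edgeR adjusted p = 0.00378). For SLC40A1 the difference was 0.11, with a 95% interval of -0.11 to 0.33. It passed under upper-quartile scaling (0.24, edgeR adjusted p = 0.0495) and with the length and GC trend removed (0.38, edgeR adjusted p = 0.000430).

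In the order of the 4 group means of each gene there were 30 pairs of neighbours, and 14 of them differed past the threshold. Of all genes, 67.2% passed between the labelled libraries and K562+L and 66.9% between K562/IM and K562+L, the pairs not described above. Neighbours were taken from each gene's own order of means, so they are its closest groups by construction. The shares for fixed pairs are therefore no background for the 14 of 30. A share of neighbours over all genes was not computed. SLC25A37 rose from K562/IM (50.2 ± 0.796 CPM) through K562 (56.8 ± 3.11) and K562+L (70.4 ± 1.36) to the labelled libraries (1333 ± 38.2), and its lowest pair did not pass. TFRC had a low pair, K562+L (362 ± 25.4) and K562/IM (393 ± 12.1), and a high pair, K562 (752 ± 109) and the labelled libraries (936 ± 149), with only the step between the pairs past the threshold. FTH1 began with K562/IM (1309 ± 19.7) and K562+L (1393 ± 73.4), which did not differ past the threshold, followed by K562 (2014 ± 268) and the labelled libraries (3533 ± 652), which did. SLC40A1 ran from K562+L (29.9 ± 0.944) to the labelled libraries (69.6 ± 2.06), K562 (72.3 ± 6.67) and K562/IM (156 ± 1.33), the middle pair not passing. NCOA4 ran from K562/IM (180 ± 4.94) and K562 (206 ± 54.3), which did not pass, to K562+L (442 ± 29.7) and the labelled libraries (719 ± 57.7). STEAP3 had K562 and K562+L as its pair that did not pass, and SLC11A2 had K562 and K562/IM. None of the 3 steps passed for FTL or ACO1, and for IREB2 the step from K562/IM to K562+L did.

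The spread between replicates of 1 group was not random over genes. Within K562, the deviation of replicate 1 from the group mean had a Spearman rho of 0.57 with transcript length over 11442 genes, and that of replicate 3 a rho of -0.57. Among the labelled libraries the rho was 0.64 for replicate 3 and -0.58 for replicate 2. It ran from -0.50 to 0.43 in K562+L and stayed between -0.22 and 0.18 in K562/IM. With GC content the rho was -0.60 for K562 replicate 1, 0.56 for K562 replicate 3 and -0.45 for labelled replicate 3. In K562+L it was -0.61 for replicate 3 and 0.54 for replicate 1, whose rho with length was 0.01. Genes of 1 library share its preparation, so these values are a description. Members followed the length trend in part: K562 replicate 1 was the lowest K562 library for the short FTL and FTH1 and the highest for the long TFRC and IREB2. It was also the highest for SLC40A1, SLC11A2, SLC25A37 and ACO1, though ACO1, the longest at 7466 bases, deviated by only 0.04 on the log2 scale. STEAP3 (3915 bases) deviated by -0.03, and NCOA4 (2307 bases) had the largest deviation in size, -0.47. Removing in each library the smooth trend with transcript length and GC content, an alternative chosen after this was seen, kept the calls of TFRC, FTH1, SLC40A1, SLC11A2, SLC25A37 and NCOA4 given above. It did not keep the STEAP3 difference between the labelled libraries and K562 or the IREB2 difference from K562/IM. In K562/IM against K562 it raised the number of members called from 4 to 7, where 70.4% of all genes then passed. K562/IM against K562 also gave 7 when K562 replicate 1 was left out, a fit whose share of all genes is not given here. Fold changes had a rho with length of 0.35 for lycorine in K562 and 0.25 for K562/IM against K562. For the labelled libraries it was -0.25 against K562/IM and -0.07 against K562, and for the interaction -0.32. Removing the trend takes out such trends between groups as well as those within a group. A call that it changed may reflect either, which was not tested.

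**Figure D4:**
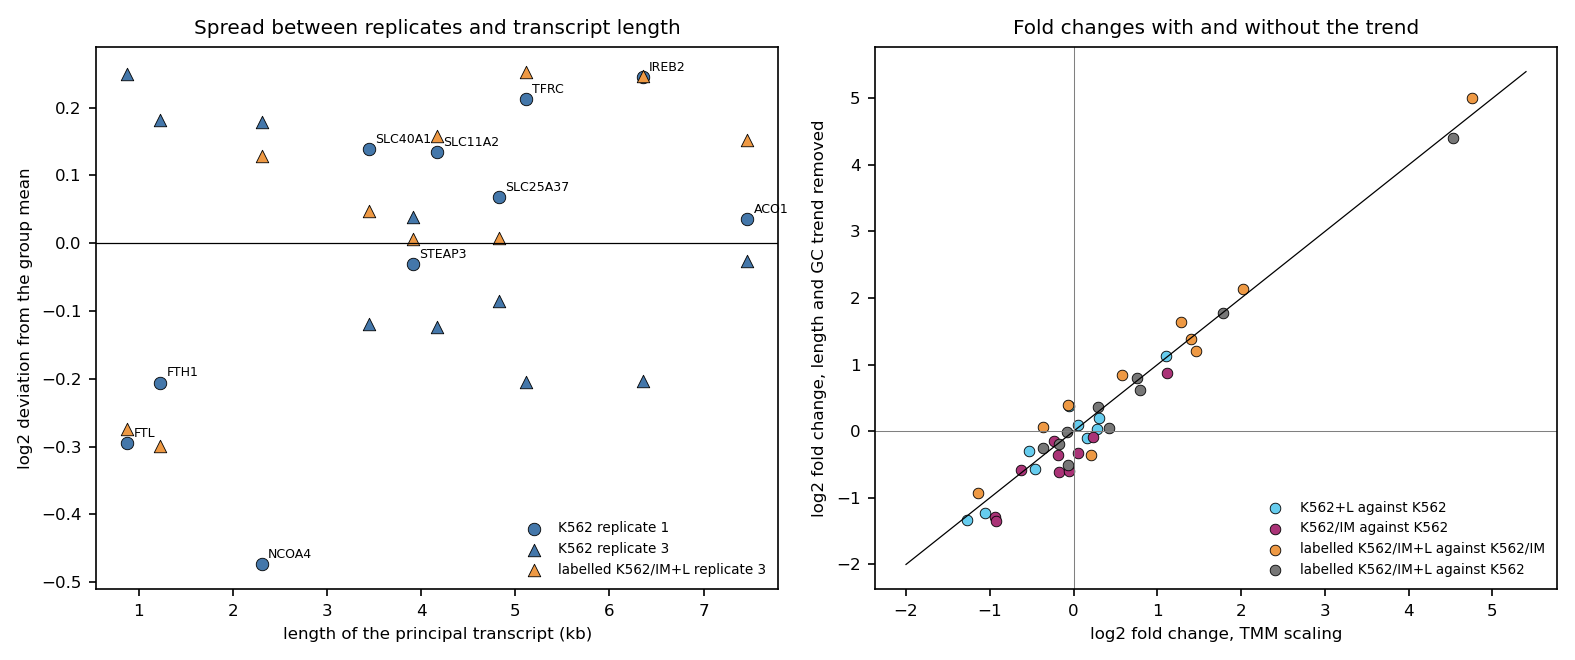
Left, log2 deviation of each of the 10 genes from its group mean (y axis) in 3 libraries, against the length of the principal transcript in kb (x axis). Right, log2 fold change with the length and GC trend removed (y axis) against that with TMM scaling (x axis) for the 10 genes in 4 comparisons, where points near the line of equality kept their value and those of FTL, IREB2, ACO1 and SLC11A2 changed sign in some comparisons.

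Beyond the 10, 74 other genes of iron handling were listed from general knowledge, of which 63 to 67 could be tested. With lycorine in K562, 11 were higher and 14 lower of 63 (39.7%, near the background of 37.3%). EPAS1, the hypoxia-inducible factor whose messenger is known to carry an iron-responsive element, rose from 36.1 ± 1.97 to 136 ± 6.45 CPM (SD, n = 3), a log2 fold change of 1.91 (edgeR adjusted p = 3.77e-05). SLC46A1, a folate carrier that also moves haem, rose by 0.96, IBA57 of iron-sulphur assembly by 0.63 and the metal importer SLC39A8 by 0.52. HJV, a co-receptor of the hepcidin pathway, fell by 2.77 from a low level of 2.56 ± 0.980 CPM. FDXR, the ferredoxin reductase, fell by 1.04, the haem transporter SLC48A1 by 0.84 and TFR2, the second transferrin receptor, by 0.82. With all libraries 25 of these genes passed. Without K562 replicate 1, 2 or 3 the counts were 30, 11 and 18. Without K562+L replicate 1, 2 or 3 they were 14, 20 and 14. The share of all genes called in these fits is not given here. A change in these counts can therefore not be told from a change over all genes.

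In K562/IM against K562, 10 of 64 were higher and 34 lower (68.8% called, with a background of 57.1%). The mitochondrial list, which covers iron-sulphur cluster assembly and the last step of haem synthesis, had 16 of 21 lower and 2 higher, with a median log2 fold change of -0.47 beside 0.04 for all genes. With the length and GC trend removed 17 were lower and 1 higher, where 70.4% of all genes passed in either direction. Erythroid markers moved with this list, with 7 of 11 lower and 1 higher and a median of -1.31. Of the 4 megakaryocyte markers only 2 could be tested, and both were higher, with a median of 3.17. ITGA2B went from 4.83 to 186 CPM and GP1BA from 1.79 to 3.76 CPM. Their part in the list's counts was not tested. GLRX5 (229 ± 15.6 to 108 ± 8.61 CPM) and FDX1 (88.2 ± 3.62 to 43.0 ± 4.08 CPM) of that list fell by 1.08 and 1.03 on the log2 scale. ABCG2, an efflux pump that also carries porphyrins, fell from 21.8 ± 0.426 to 1.85 ± 0.413 CPM (log2 fold change -3.56, edgeR adjusted p = 3.08e-06), and ALAS2 fell by 1.31. BMP6, an inducer of hepcidin, had 526 counts over the 3 K562/IM libraries and 0 in K562. With 3 counts over the group set in place of 0, it was 149-fold higher. That value is no firm lower bound, because low counts clustered near multiples of 4, as given below, so 1 count may not be 1 read. CDC42BPA, a kinase whose messenger is known to carry an iron-responsive element, was higher by 1.26, BLVRA of haem breakdown by 0.73 and EPAS1 by 0.60. The EPAS1 call was lost with the length and GC trend removed (0.14, edgeR adjusted p = 0.0526).

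In the labelled libraries against K562/IM, 29 of 67 were higher and 16 lower (67.2%, near the background of 66.8%). Of the mitochondrial list 14 of 21 were higher and 1 lower, with a median of 0.68 beside -0.01 for all genes. With the length and GC trend removed 14 were higher and 4 lower, where 70.9% of all genes passed in either direction. These counts moved with the erythroid markers given above, of which ALAS2 is 1. ALAS2 was higher by 5.99 (edgeR adjusted p = 1.05e-07), the mitochondrial transporter ABCB10 by 2.47 and TFR2 by 1.77. TF, transferrin itself, stood at 29.2 ± 4.16 CPM against 0.522 ± 0.0754 in K562/IM (log2 fold change 5.83, edgeR adjusted p = 4.01e-07). SLC39A14, an importer of iron not bound to transferrin, fell from 52.1 ± 1.08 to 11.2 ± 0.926 CPM, and HSPA9, the mitochondrial chaperone of cluster assembly, from 768 ± 6.80 to 330 ± 9.89. EPAS1 fell by 1.26. BMP6 had 0 counts in the labelled libraries, 150-fold lower with the same 3 counts in place of 0, which again is no firm bound.

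Against K562, the labelled libraries had 21 of 65 higher and 15 lower (55.4%, near the background of 56.0%). FECH, which inserts iron into haem, stood at 387 ± 18.1 CPM against 101 ± 3.79, a log2 fold change of 1.92 (edgeR adjusted p = 8.23e-06). ALAS2 was higher by 4.63, TFR2 by 1.71 and LRP1, a scavenger receptor for haem bound to haemopexin, by 4.45 from a low level of 0.945 ± 0.280 CPM. The log2 fold change was -2.55 for SLC39A14, -1.68 for HSPA9, -1.27 for the cytosolic glutaredoxin GLRX3 and -0.96 for FDX1.

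By list, the counts of higher and lower genes in the 4 comparisons, in the order used above, were as follows, and over all genes 37.3%, 57.1%, 66.8% and 56.0% passed in either direction. The other uptake genes had 5 higher and 2 lower of 12 tested, 0 and 5 of 12, 6 and 3 of 13, and 5 and 3 of 13. Other ferritin and cytosolic handling genes had 1 and 1 of 6, 1 and 5 of 6, 2 and 1 of 7, and 2 and 3 of 7. For export, haem breakdown and the hepcidin axis the counts were 1 and 3 of 10, 2 and 3 of 11, 3 and 4 of 12, and 2 and 2 of 10. Regulators such as FBXL5 and BACH1 had 2 and 1 of 10, 4 and 2 of 10, 2 and 5 of 10, and 2 and 3 of 10. The mitochondrial list had 1 and 7 of 21 with lycorine in K562, and 9 and 3 of 21 in the labelled libraries against K562. The 10 messengers known to carry an iron-responsive element, 5 of them members, had 2 and 4, 3 and 5, 5 and 4, and 3 and 2.

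The genes whose level was most like each member were ranked by Pearson r of log2 CPM over the 12 libraries, among 11666 genes with a mean of at least 1 CPM, for the 7 members whose group means spanned over 1 on the log2 scale. The 12 libraries fall into 4 groups of 3, so that r mainly follows the group means. For SLC25A37 the closest were TBC1D2 (r = 0.997), EPB42 (0.996) and A2ML1 (0.996), and for FTH1 they were EIF3F (0.996), BSCL2 (0.996) and MMAB (0.993). STEAP3 was closest to SPTB (0.993), ADGRD1 (0.991) and RHAG (0.990), and SLC40A1 to GIPC3 (0.993), TMCO6 (0.984) and SH3TC1 (0.984). The values were lower for NCOA4, with MAPK8IP1 (0.981), SLC29A1 (0.972) and CCDC97 (0.970), and for TFRC, with PCK1 (0.969), EIF4B (0.962) and MSMO1 (0.959). SLC11A2 had the lowest, with LEPROT (0.945), LVRN (0.940) and GPR160 (0.936).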

How the data were processed

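RNA of 12 libraries, 3 per group, was used, with groups taken from the labelled line and treatment. The authors deposited whole-number counts per gene symbol, without normalization, and the role and versions of the tools their processing notes name (FastQC, STAR, StringTie and DESeq2, with the build hg38) are not given in the sources used here. Of 23289 deposited counts from 1 to 25, 67.9% equalled 4 times a whole number or that plus 1, where 52% of the whole numbers in that range do, so counting noise may exceed what the totals give. From the counts, edgeR 4.0.16 in R 4.3.3 (filterByExpr with a minimum count of 10, TMM, quasi-likelihood test, Benjamini-Hochberg over all genes tested, calls at an adjusted p under 0.05) compared the 6 libraries of each pair of groups, and the interaction used all 12. CPM used TMM over the 12 libraries, and standard errors are the log2 fold change divided by the root of F. Positions and transcripts came from GENCODE release 29 (GRCh38), in which 18901 symbols matched.

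The members and lists were chosen with earlier results of these data known. All members are named, and of the other lists the 4 smallest p in each direction per comparison among called genes whose libraries do not overlap. HMOX1 was chosen after its values were seen, as were FBXL5 and BACH1 as examples. Alternatives were DESeq2 1.42.0, upper-quartile and RLE scaling, other low-count filters, all 12 libraries in 1 fit, a replicate block, counts divided by 4, each library left out and, after seeing the data, removal of each library's trend with transcript length and GC. The steps were tested on simulated data. No batch is given in the labels.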

Additional observations from a re-analysis of the deposited data

Results flagged for a closer look

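For 8 of the 10 genes the interaction term over 12 libraries separated the lycorine effects of the lines, as labelled (edgeR, effect in K562/IM minus effect in K562, log2). The same term passed for 61.7% of all 13995 genes tested. The values were 2.31 for TFRC, 1.97 for FTH1, 4.43 for SLC25A37, 1.00 for SLC11A2 (adjusted p = 0.00250), 1.32 for STEAP3 (adjusted p = 1.93e-07), -0.67 for IREB2 (adjusted p = 0.00726), -0.26 for ACO1 (adjusted p = 0.0488) and 0.90 for NCOA4. The first 5 and NCOA4 passed in all 20 alternatives. IREB2 passed in 19 and was 0.0014 (adjusted p = 0.996) with the length and GC trend removed. ACO1 kept its call and direction in 2 of 20. All of these values rest on the labelled libraries, whose ABCB1 level and erythroid markers are given above. With 3 libraries in each group, no test for an outlying library was made.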

How the results depend on the processing

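Of 50 member results, 26 kept their direction and their side of the threshold under every alternative run. The counts of members called, under the fits that each left out 1 library, ran from 5 to 7 for lycorine in K562, 4 to 7 for K562/IM against K562, 7 to 9 for the labelled libraries against K562/IM, 5 to 7 against K562 and 7 to 8 for the interaction. Neighbours in the order of means that differed numbered 13 to 16, and other iron genes called 11 to 30, 31 to 48, 38 to 52 and 26 to 37 in the first 4 comparisons. The share of all genes called in these fits is not given here. A change in these counts can therefore not be told from a change over all genes. With the length and GC trend removed, K562/IM against K562 called 7 members, where 70.4% of all genes passed, and 23 neighbours differed. The members whose sign turned under that setting were FTL (0.39 in K562+L, -0.36 in the labelled libraries against K562/IM and -0.70 for the interaction), ACO1 (-0.11, 0.40 and 0.48 likewise), IREB2 (-0.33 in K562/IM against K562, 0.070 in the labelled libraries against K562/IM and 0.0014 for the interaction) and SLC11A2 (-0.081 in K562/IM against K562). Upper-quartile scaling turned FTL (0.087) and SLC40A1 (0.077) in the labelled libraries against K562, where it moved the median of all genes from 0.02 to 0.17, so that relative to that median neither turned. It moved the median from -0.02 to 0.11 for the interaction. Leaving out K562 replicate 3 turned FTL in K562+L (0.078) and against the labelled libraries (0.062), and IREB2 in K562/IM (-0.056). Leaving out K562+L replicate 3 or labelled replicate 3 turned FTL (0.019 and 0.072). Over the fits without 1 library, FTL in K562+L ran from -0.20 to 0.078, FTL against K562 from -0.20 to 0.072 and IREB2 in K562/IM from -0.056 to 0.15. Of these turned values only some of the length setting were past the threshold, and the cause was not tested. Where a fit left out 1 library, its group kept 2.

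Replicate numbers are shared between groups, but same-numbered libraries did not deviate together throughout. Over 18 pairings r ran from -0.60 to 0.44, with 4 over 0.1, and the labels name no shared culture. Between K562+L and the labelled libraries r was -0.04, 0.30 and 0.44 for numbers 1, 2 and 3. The value of -0.60 was that of K562 and the labelled libraries for number 3. With the replicate block, 5, 4, 8, 5 and 7 members were called in the comparisons above, SLC25A37 in K562+L (adjusted p = 0.0935) and the ACO1 interaction (adjusted p = 0.0516) being lost, 14 neighbours differed, and 17, 41, 44 and 27 other iron genes were called, against 25, 44, 45 and 36 without it. The share of all genes called with the block is likewise not given. Single values past or short of the threshold in 1 setting only are given in the results where a call rests on them. Depth limits mainly the list genes with few counts, such as BMP6 and HJV.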

Other observations

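HMOX1, the inducible haem oxygenase, was at or near 0: 10 of 12 libraries had 0 counts and K562+L replicates 2 and 3 had 4 each. It was chosen after its values were seen, as were the groups set side by side here. ABCG2 stood at 21.5 ± 1.23 CPM in the labelled libraries and 21.8 ± 0.426 in K562 (SD, n = 3 each). FDXR stood at 104 ± 3.13 CPM in K562/IM and 109 ± 14.3 in the labelled libraries, against 56.9 ± 11.0 in K562.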
